A study of Mus musculus with 9 samples.

Results

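The fatty acid pathway genes examined here are 32 of the 23284 genes in a count table of mouse gastrocnemius, the large calf muscle. They were picked by symbol as genes of fatty acid uptake, lipolysis and oxidation, and all 32 have a row in the table. RNA was sequenced from 9 samples of this muscle taken after exercise at 3 months of age, on a mixed 129/C57/BL6 background. The 5 control libraries came from mice whose Gprc6a gene carries loxP sites on both alleles (Gprc6a fl/fl). The 4 knockout libraries came from Gprc6a fl/fl mice with Mck-Cre, in which the promoter of muscle creatine kinase drives the recombinase, a promoter active in skeletal and cardiac muscle fibres. Both groups thus carry the loxP alleles and both were exercised, and neither unexercised muscle nor a group with Cre alone was compared. The comparison asks which transcripts differ when Gprc6a, which senses amino acids and osteocalcin at the cell surface, is deleted in muscle fibres. Whether the libraries come from different animals is not in the labels, so a p-value here measures library-to-library spread, which may be technical.

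Muscle takes up fatty acids that lipoprotein lipase frees from blood lipoproteins, and also draws on its own lipid droplets. Inside the fibre, fatty acids are joined to coenzyme A, carried across the mitochondrial membranes as carnitine esters, and shortened in the beta-oxidation spiral, whose electrons pass through the electron transfer flavoprotein to the respiratory chain. This pathway is a main source of energy in prolonged exercise, and the transcription factors of the PPAR family raise many of its genes in fasting and exercise.

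The libraries held 19522947 to 25608659 counts. Gprc6a itself had 0 counts in every library, which allows at most 0.116 to 0.159 CPM (counts per 1000000, here scaled by the TMM method), so the counts cannot check the deletion. In the titles, the knockouts are called Gprc5a, while the descriptions write Gprc6a and the genotype field Grpc6a. Skeletal muscle identity was plain, since 15 of 15 fibre markers were tested and together reached 189100 to 259700 CPM per library. Adipocyte markers, a list of 12 genes with none at 0 in all libraries, summed to 771 and 578 CPM in controls 4 and 5, against 149 to 272 CPM in controls 1 to 3 and 149 to 306 CPM in knockouts. Ucp1, the uncoupling protein of brown fat, was at 16.6 and 7.03 CPM in controls 4 and 5 and at most 0.692 CPM elsewhere. The 6 brown adipocyte markers, which include genes that muscle fibres express, summed to 453 CPM in control 4 and 758 CPM in control 5, against 375 to 513 CPM in the other controls and 435 to 643 CPM in knockouts. Macrophage markers ran from 105 to 146 CPM over all libraries, and erythroid markers, with 3 of 6 at 0, from 54 to 77.2 CPM in controls and from 68.1 to 368 CPM in knockouts. Results that controls 4 and 5 touch are also given without them, a choice made with earlier results of these data known.

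No fatty acid gene passed the test between knockout and control muscle. By edgeR's quasi-likelihood test with Benjamini-Hochberg adjustment over 13198 genes, 0 of the 31 tested members passed an adjusted p of 0.05 (smallest adjusted p = 0.967), where 0% of all genes passed. At an unadjusted p under 0.05 there were 0 members, against 3.17% of all genes. DESeq2 called 0 members, against 0.0165% of all genes, and limma-voom called 0, against 0%. At an unadjusted p under 0.05 DESeq2 also had 0 members, against 2.8% of genes, and limma-voom 0, against 2.96%. The median log2 fold change, knockout minus control, was -0.01 over the members, with 15 above 0 and 16 below, and -0.0023 over all tested genes. The split between directions rested on the libraries used. Without controls 4 and 5 it was 25 above and 6 below, with a median of 0.09, and without control 5 and knockouts 3 and 4 it was 8 above and 23 below. There was no member in which the groups did not overlap, against 0.811% of all genes.

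The precision of these fold changes limits what a missing call can mean. Standard errors (SE) ran from 0.085 to 0.349 on the log2 scale, with a median of 0.136. For 27 of the 31 tested members the 95% interval of the difference lay within a 1.5-fold change in either direction, and for 30 it lay within a 2-fold change. The exceptions to the narrower bound were Lpl, Angptl4, Lipe and Ucp3, and Lipe was the exception to the wider one.

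**Figure D1:**
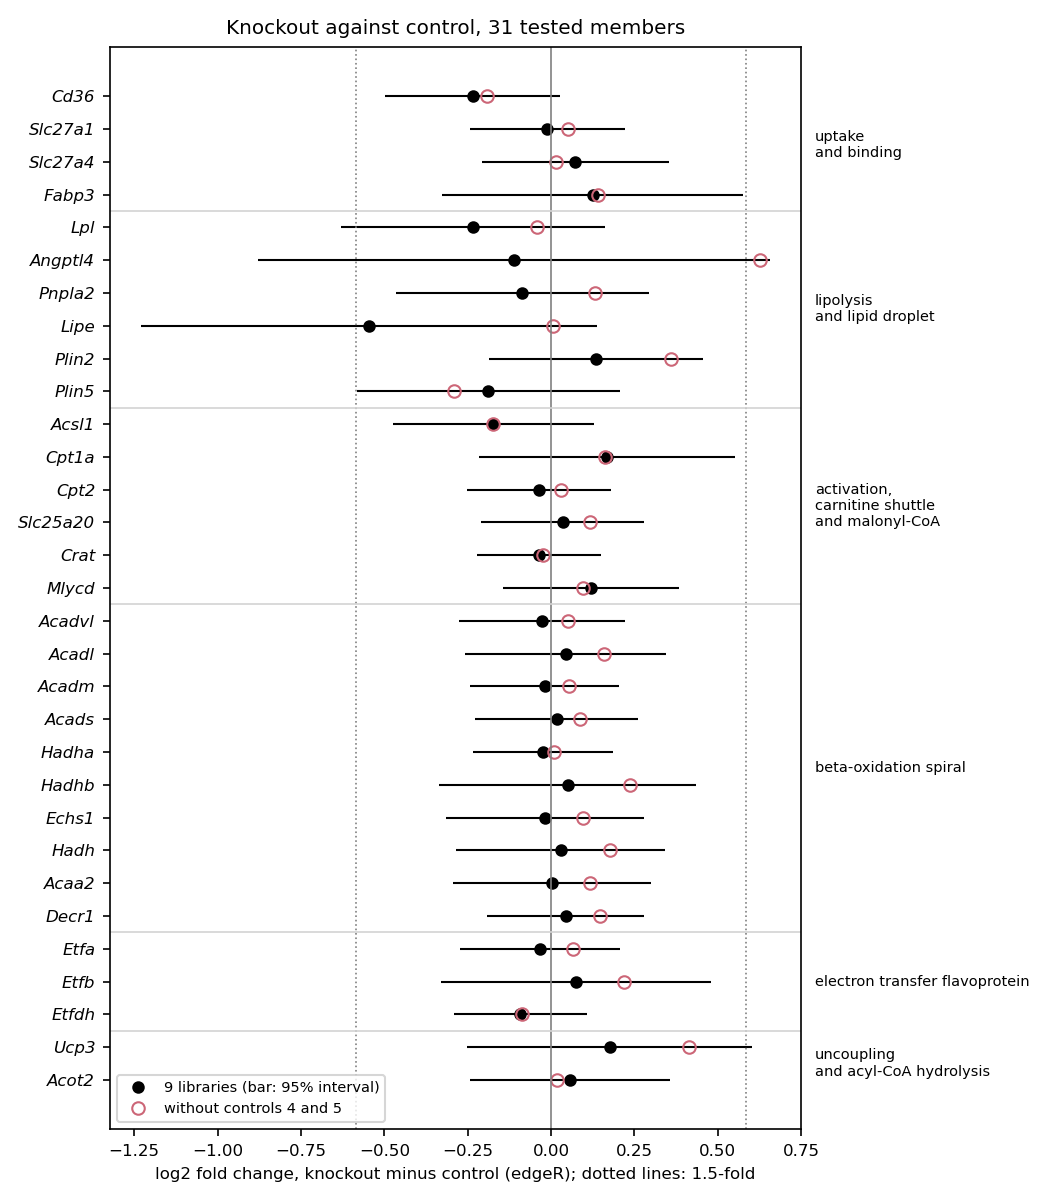
Log2 fold changes of the 31 tested fatty acid genes, knockout minus control, grouped by role; filled points with bars are the fit of 9 libraries with its 95% interval, and open points are the fit without controls 4 and 5. Every bar crosses 0, and the open points move most for Angptl4 (-0.11 to 0.63) and Lipe (-0.55 to 0.01).

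To compare levels between genes, CPM was divided by the length of each gene's principal transcript. In controls, Lpl ranked first at 255 ± 67.3 CPM per kilobase (SD, n = 5), followed by the electron transfer subunit Etfb at 240 ± 62.3 and the medium-chain dehydrogenase Acadm at 239 ± 28.3. These 3 did not differ beyond their spread. In knockouts Etfb stood at 253 ± 46.9, Acadm at 236 ± 11.4 and Lpl at 217 ± 19.6 CPM per kilobase (SD, n = 4), so Lpl was not first there. The order then fell smoothly, with the ranges of each pair of neighbours overlapping, down to Hadhb, the thiolase subunit of the trifunctional protein, at 40.6 ± 9.99 CPM per kilobase. A gap without overlap separated Hadhb from Plin2 (19.3 ± 4.13), and another separated Lipe (15.4 ± 7.34) from Acot2 (6.32 ± 0.771), which in turn did not overlap Slc27a4. Slc27a4, Cpt1a and Angptl4 stood at 3.83, 2.68 and 2.58 CPM per kilobase. Of the 31 tested members, 22 were among the tenth of all tested genes with the highest CPM, without scaling by length.

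**Figure D2:**
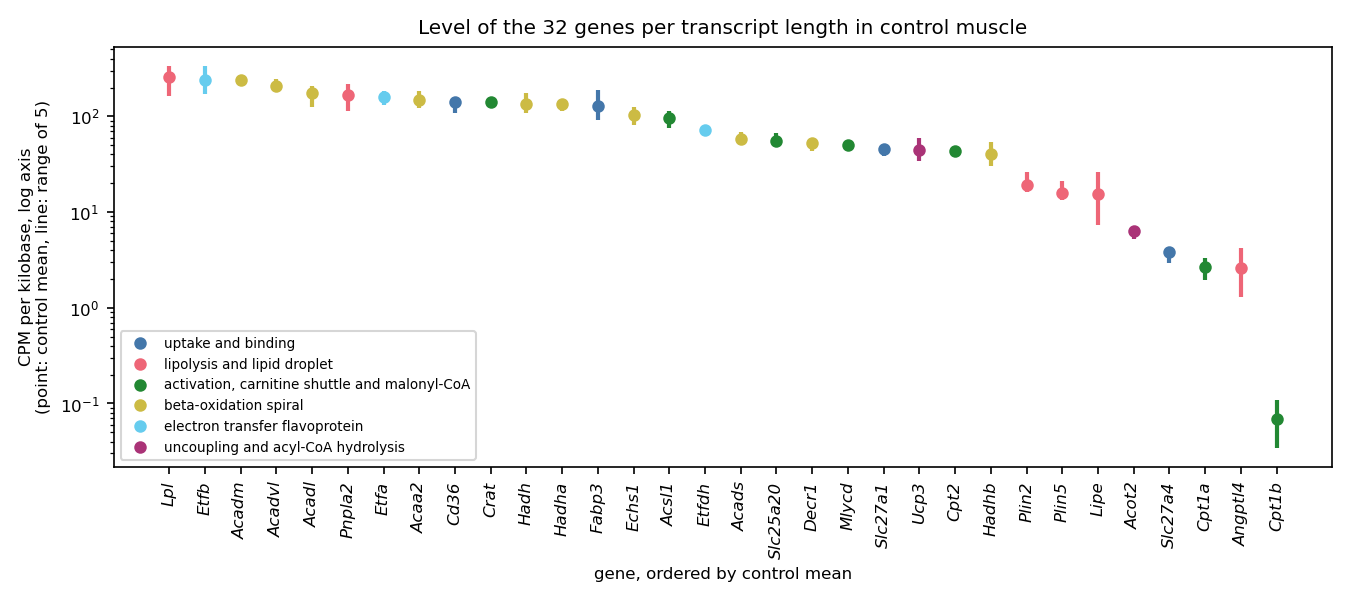
Level of all 32 genes in the 5 control libraries as CPM per kilobase of transcript, on a log axis, ordered by mean and coloured by role; points are means and lines the range. The levels run from 255 CPM per kilobase for Lpl to 2.58 for Angptl4, with Cpt1b alone at 0.0694.

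Among the 4 genes of uptake and binding, the median log2 fold change was 0.03. Cd36, the membrane fatty acid translocase, had the smallest p of all members. In controls 1 to 5, Cd36 stood at 517, 370, 537, 543 and 461 CPM, and knockouts 1 to 4 had 435, 417, 373 and 424 CPM, the order of libraries used throughout. The groups overlapped through control 2, the lowest library of all. Its log2 fold change was -0.24 (SE 0.12, edgeR adjusted p = 0.967). Without control 2 the value was -0.32 (SE 0.09, edgeR adjusted p = 0.797), the farthest from 0 of 18 alternatives, which reached -0.19 at the other end. Control 2 was the lowest library for 13 of the 31 tested members, so leaving it out is not particular to Cd36. Without controls 4 and 5 it was -0.19.

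Fabp3, the heart and muscle fatty acid binding protein of the cytosol, varied widely between libraries. It stood at 87.7, 75.8, 156, 85.5 and 130 CPM in controls and 93.6, 110, 134 and 129 CPM in knockouts, and the groups overlapped widely. Controls 3 and 5 were also those with the most Tnnt1, a troponin of slow fibres (1025 and 1042 CPM, against 498 to 572 CPM in the other controls and 432 to 864 CPM in knockouts). Myh7, the slow myosin heavy chain, was highest in control 3 among controls (2217 CPM) and lowest in control 5 (1333 CPM). The part of slow fibres in the Fabp3 values was not tested. The acyl-CoA synthetase transporters Slc27a1 and Slc27a4 stood at -0.01 (SE 0.11) and 0.07 (SE 0.13). Of the words of 50 bases in the Fabp3 transcript, 37.3% also stand in other genes, mainly the pseudogene Fabp3-ps1, and 19.6% of its bases lie under the antisense gene Zcchc17, so its level is uncertain.

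Between controls, the lipolysis and lipid droplet genes were the most variable group, with SDs from 20.6% (Plin5) to 55.3% (Angptl4) of the mean. Lpl, the lipoprotein lipase that frees fatty acids at the capillary wall, stood at 891, 669, 1220, 1094 and 1374 CPM in controls and at 783, 976, 904 and 909 CPM in knockouts. The knockouts lay inside the range of the controls. The log2 fold change of Lpl was -0.23 (SE 0.18), and it was -0.04 (SE 0.19) without controls 4 and 5. Gpihbp1, which anchors the enzyme to endothelial cells, had a log2 fold change of 0.06 (SE 0.24). The summed level of 8 endothelial markers was 333 to 362.4 CPM in controls and 362.6 to 377 CPM in knockouts. Adipocyte markers summed to 771 and 578 CPM in controls 4 and 5 and to at most 306 CPM elsewhere. The part of either cell type in the values of Lpl was not tested.

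Lipe, the hormone-sensitive lipase that cuts diacylglycerol, had the fold change farthest from 0 of all members. It stood at 26.6, 40.2, 47.8, 94 and 69.8 CPM in controls and at 39.5, 28.1, 45 and 40 CPM in knockouts. Controls 4 and 5 were above every other library, while controls 1 to 3 and the knockouts covered overlapping ranges. Over 9 libraries the fold change was -0.55 (SE 0.31) on the log2 scale. Without controls 4 and 5 it was 0.01 (SE 0.21), with controls 1 to 3 at 38.2 ± 10.7 CPM (SD, n = 3) and knockouts at 38.1 ± 7.14 CPM (SD, n = 4). Adipocytes express Lipe, and their markers were highest in the same 2 controls, whose part in the result was not tested beyond this. In whole muscle, more cells of a type and more RNA per cell cannot be told apart. Part of the transcript (23.8% of its bases) lies under an antisense gene, 4732471J01Rik, and reads of the 2 genes could not be told apart.

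Angptl4, a secreted inhibitor of lipoprotein lipase and a PPAR target, moved with the same libraries. It stood at 4.27, 6.15, 4.93, 13.9 and 13.3 CPM in controls and at 9.64, 8.13, 6.4 and 7.21 CPM in knockouts. The knockouts fell between controls 1 to 3, which were all lower, and controls 4 and 5, which were both higher. Its fold change on the log2 scale was -0.11 (SE 0.35) over 9 libraries and 0.63 (SE 0.19, unadjusted p = 0.0079, adjusted p = 0.906) without controls 4 and 5.

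Plin2 is a coat protein of lipid droplets. It stood at 30.9, 32.7, 30.5, 49 and 38.9 CPM in controls and at 35.6, 39.4, 45.6 and 39.5 CPM in knockouts. Every knockout was above controls 1 to 3, and control 4 was above every knockout. On the log2 scale the fold change was 0.14 (SE 0.15), and 0.36 (SE 0.12, unadjusted p = 0.0115, adjusted p = 0.906) without controls 4 and 5. In that fit 2 of 31 members, Angptl4 and Plin2, had an unadjusted p under 0.05, where 2.93% of 13298 genes did, and 0 passed after adjustment, where 0% did. The same 2 were the members whose groups did not overlap, where 3.49% of genes did not. The choice of these controls is not independent of these genes, since adipocytes express both.

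The remaining droplet genes also had groups that overlapped. Pnpla2, the adipose triglyceride lipase that starts droplet breakdown, was at -0.09 (SE 0.17) and Plin5, the droplet protein that tethers mitochondria in oxidative tissue, at -0.19 (SE 0.18). For Plin5 the value without controls 4 and 5 was -0.29 (SE 0.20).

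**Figure D3:**
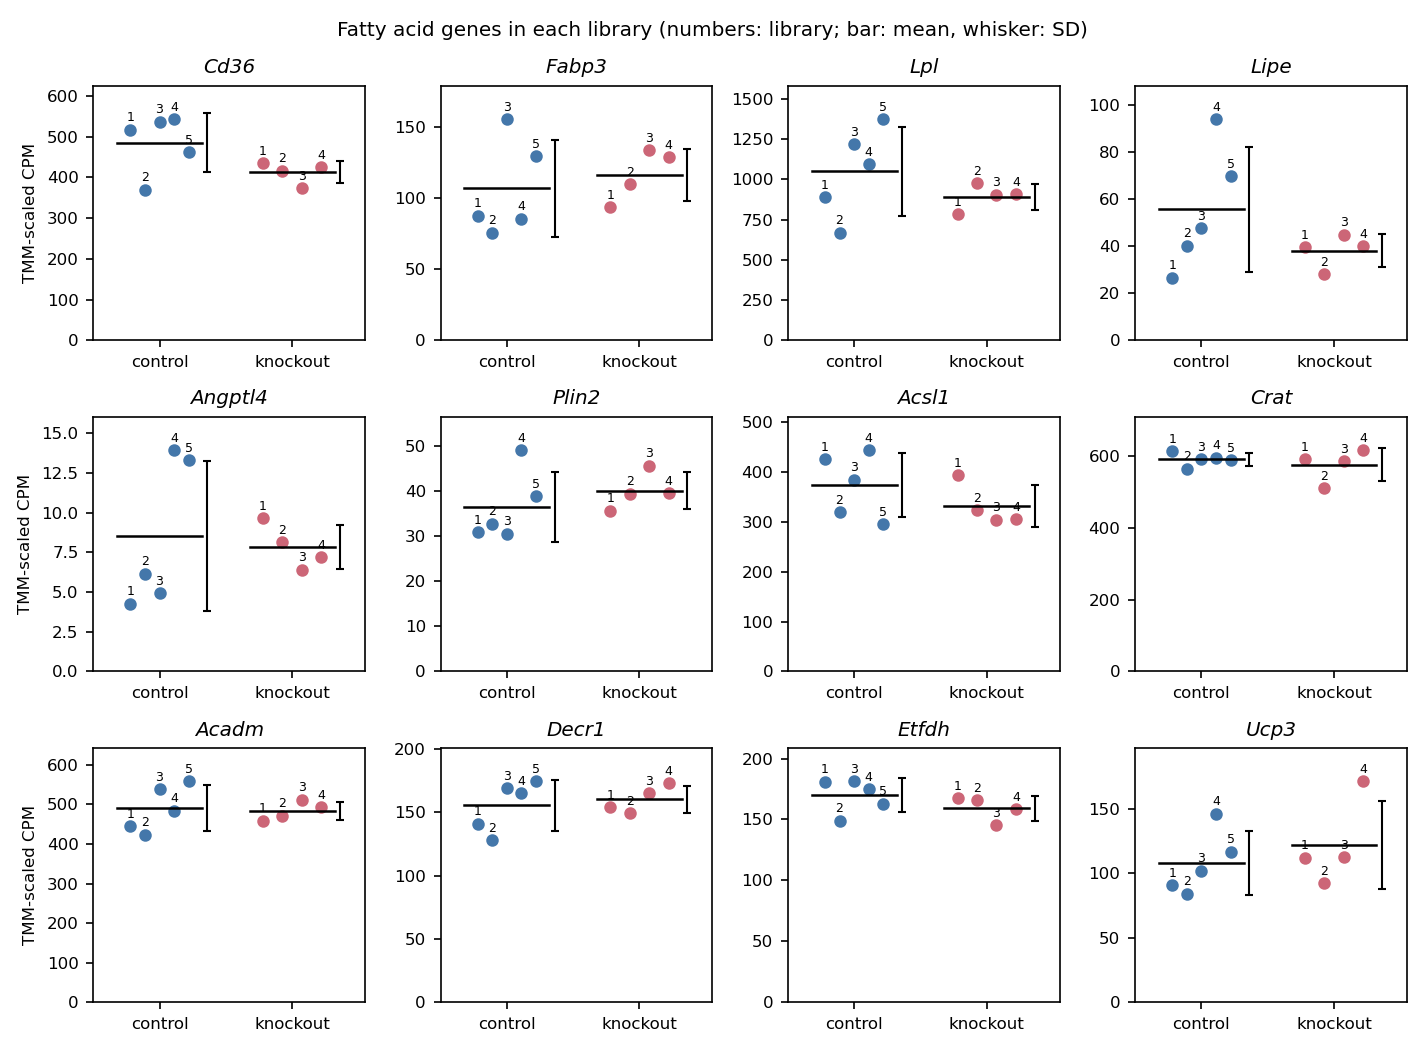
TMM-scaled CPM of 12 fatty acid genes in each library; numbers are library numbers, black bars are means and whiskers SDs (5 controls, 4 knockouts). Controls 4 and 5 are the 2 highest libraries for Lipe and Angptl4, and the groups overlap in every panel.

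Of the genes of activation, the carnitine shuttle and malonyl-CoA, 6 of 7 could be tested, with 3 above 0 and 3 below. Crat, the mitochondrial carnitine acetyltransferase that buffers acetyl-CoA, was the steadiest of all 32 genes between controls. It stood at 613, 565, 592, 596 and 588 CPM in controls and at 591, 511, 587 and 617 CPM in knockouts. The coefficient of variation between controls was 2.94%, against a median of 15.1% over the tested members, and the log2 fold change was -0.04 (SE 0.09).

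Acsl1, the main long-chain acyl-CoA synthetase of muscle, had the smallest p of this role. It stood at 426, 319, 384, 444 and 296 CPM in controls and at 393, 323, 304 and 305 CPM in knockouts. The groups overlapped, and the log2 fold change was -0.17 (SE 0.14), and -0.18 without controls 4 and 5. Cpt2 and Slc25a20, the inner membrane transferase and carnitine carrier, were at -0.04 (SE 0.10) and 0.04 (SE 0.11). Mlycd, which degrades malonyl-CoA, the inhibitor of Cpt1, was at 0.12 (SE 0.12), and at -0.11 without control 5 and knockouts 3 and 4.

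Cpt1b, the muscle form of carnitine palmitoyltransferase 1, had almost no counts. Controls 1 to 5 held 7, 3, 5, 6 and 2 of them, knockouts held 10, 11, 3 and 4, and the filter on low counts removed it. The mean was 0.201 ± 0.094 CPM (SD) over 5 controls and 0.312 ± 0.159 CPM over 4 knockouts (two-sided exact permutation p = 0.222, where these 9 libraries allow no less than 0.0159). In the GENCODE M21 annotation, 94.8% of the bases of its transcript lie under the read-through gene Gm44502 on the same strand, which is not a row of the table. The part of this overlap in the low count was not tested. Cpt1a, the liver form, stood at 12.7, 10.4, 12.1, 14.4 and 8.43 CPM in controls and at 13.9, 12, 9.96 and 16.3 CPM in knockouts (0.17, SE 0.18). The groups overlapped in both forms.

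The 10 genes of the beta-oxidation spiral were the tightest group, with log2 fold changes between -0.03 and 0.05 and SEs of 0.096 to 0.176. The acyl-CoA dehydrogenases for very long, long, medium and short chains, Acadvl, Acadl, Acadm and Acads, stood at -0.03, 0.04, -0.02 and 0.02. Of the bases of the Acadvl transcript, 45% lie under the antisense gene Dvl2, so the level of Acadvl is uncertain. Acadm, the highest of the spiral per length, was at 445, 424, 538, 484 and 558 CPM in controls and at 459, 472, 512 and 493 CPM in knockouts. All 4 knockouts lay inside the range of the controls, and the 95% interval of the log2 difference ran from -0.24 to 0.21.

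Further along the spiral, the enoyl-CoA hydratase Echs1, the hydroxyacyl-CoA dehydrogenase Hadh and the thiolase Acaa2 stood at -0.02 (SE 0.14), 0.03 (SE 0.14) and 0.00 (SE 0.14). Decr1, the reductase needed for unsaturated fatty acids, had the smallest p of the spiral. It stood at 141, 128, 169, 165 and 175 CPM in controls and at 154, 150, 165 and 173 CPM in knockouts, and the fold change was 0.04 (SE 0.11). Without controls 4 and 5 the spiral genes lay between 0.01 and 0.24, with a median of 0.11.

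Hadha and Hadhb encode the 2 subunits of the mitochondrial trifunctional protein, which assemble in equal numbers. In RefSeq (GRCm38.p6) their starts lie back to back with 272 bases between them. The 250 bases before the Hadhb start, chr5:30155003-30155252 on the plus strand, are shown because this stretch lies upstream of both genes. Capitals mark GGGCGG, the GC box, which was searched on both strands.
Hadhb: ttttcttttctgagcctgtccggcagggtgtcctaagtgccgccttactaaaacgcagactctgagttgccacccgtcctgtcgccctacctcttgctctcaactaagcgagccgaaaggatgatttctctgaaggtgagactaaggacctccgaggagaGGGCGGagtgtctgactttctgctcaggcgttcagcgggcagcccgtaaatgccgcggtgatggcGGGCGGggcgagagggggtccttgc
The stretch holds 2 GC boxes. At least 1 was in 32.7% of all RefSeq windows of this length, and in a window of 16 of the 26 fatty acid genes that have one. A gene with several windows was counted if any of them held the motif. The share of windows and the count of genes are thus unlike measures and cannot be compared. TATAAA, the TATA box, was in 12.4% of all windows and in 0 of these 26 genes. A match describes the letters only.

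Neither subunit differed between groups, with Hadha at -0.02 (SE 0.10) and Hadhb at 0.05 (SE 0.18). Hadha stood at 130, 115, 149, 134.5 and 139 CPM per kilobase in controls and at 122.5, 128, 138.5 and 136 in knockouts. Hadhb stood at 31.6, 30.3, 46.1, 41.2 and 54.1 CPM per kilobase in controls and at 34.6, 38.4, 46.7 and 48.7 in knockouts. Hadha was thus counted 2.56 to 4.11 times as high as its partner in every library. Of the 50-base words of the Hadhb transcript, 61.5% also stand in the pseudogene Gm13910, against 0.655% of the Hadha words shared with any gene. Whether the shared words lowered the Hadhb count was not tested.

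The electron transfer flavoprotein subunits Etfa and Etfb and the dehydrogenase Etfdh, which hand electrons to ubiquinone, stood at -0.03 (SE 0.11), 0.08 (SE 0.19) and -0.09 (SE 0.09). Etfdh was at 181, 149, 181, 175 and 163 CPM in controls and at 168, 166, 145 and 158 CPM in knockouts, and the groups overlapped. Etfb was at 154, 199, 235, 186 and 299 CPM in controls and at 187, 197, 277 and 242.5 CPM in knockouts, and control 5 was the highest and control 1 the lowest. Of the Etfb transcript, 69.1% lies under the gene Gm45233 on the same strand, which is not a row of the table, so the level of Etfb is uncertain.

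The spiral genes moved together from library to library. Relative to each gene's mean over the 9 libraries, all 10 were above it in controls 3 and 5 and knockout 3, 9 were in knockout 4, and 5 were in control 4. None was above it in controls 1 and 2 and knockouts 1 and 2. The median deviation on the log2 scale was -0.20, -0.19, 0.14, 0.00 and 0.25 in the controls and -0.10, -0.08, 0.16 and 0.05 in the knockouts. The 3 electron transfer genes had medians of -0.12, -0.14, 0.14, 0.04 and 0.24 in controls and of -0.10, -0.07, 0.08 and 0.04 in knockouts. These medians had the same sign as the spiral in each library, but Etfdh did not follow it. Etfdh stood at 0.135, -0.144, 0.139, 0.086 and -0.015 in controls and at 0.026, 0.012, -0.182 and -0.056 in knockouts. Its sign was opposite to that of the spiral in controls 1 and 5 and in every knockout. Over all tested genes the median deviations lay between -0.008 and 0.012. The TMM scaling keeps them near 0, so they cannot show whether genes outside the pathway share the pattern, which was not tested.

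Transcript length moved with part of this pattern. The slope of a gene's deviation on log2 length, over 11978 tested genes, was -0.16 in control 5, -0.16 in knockout 3 and -0.08 in knockout 4, so that short transcripts were counted higher there. It was 0.19 in control 1 and 0.11 in control 4. The 16 tested members up to 2168 bases had median deviations of 0.25, 0.22 and 0.09 in control 5 and knockouts 3 and 4, while the 15 longer members had 0.07, 0.01 and -0.04. Control 3 had almost no slope (0.004), and both its shorter and its longer members were high (0.14 and 0.11). Without control 5 and knockouts 3 and 4, the median log2 fold change of the members was -0.04, and 0 passed, where 0% of genes did. The part of length in each gene's values was not tested.

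**Figure D4:**
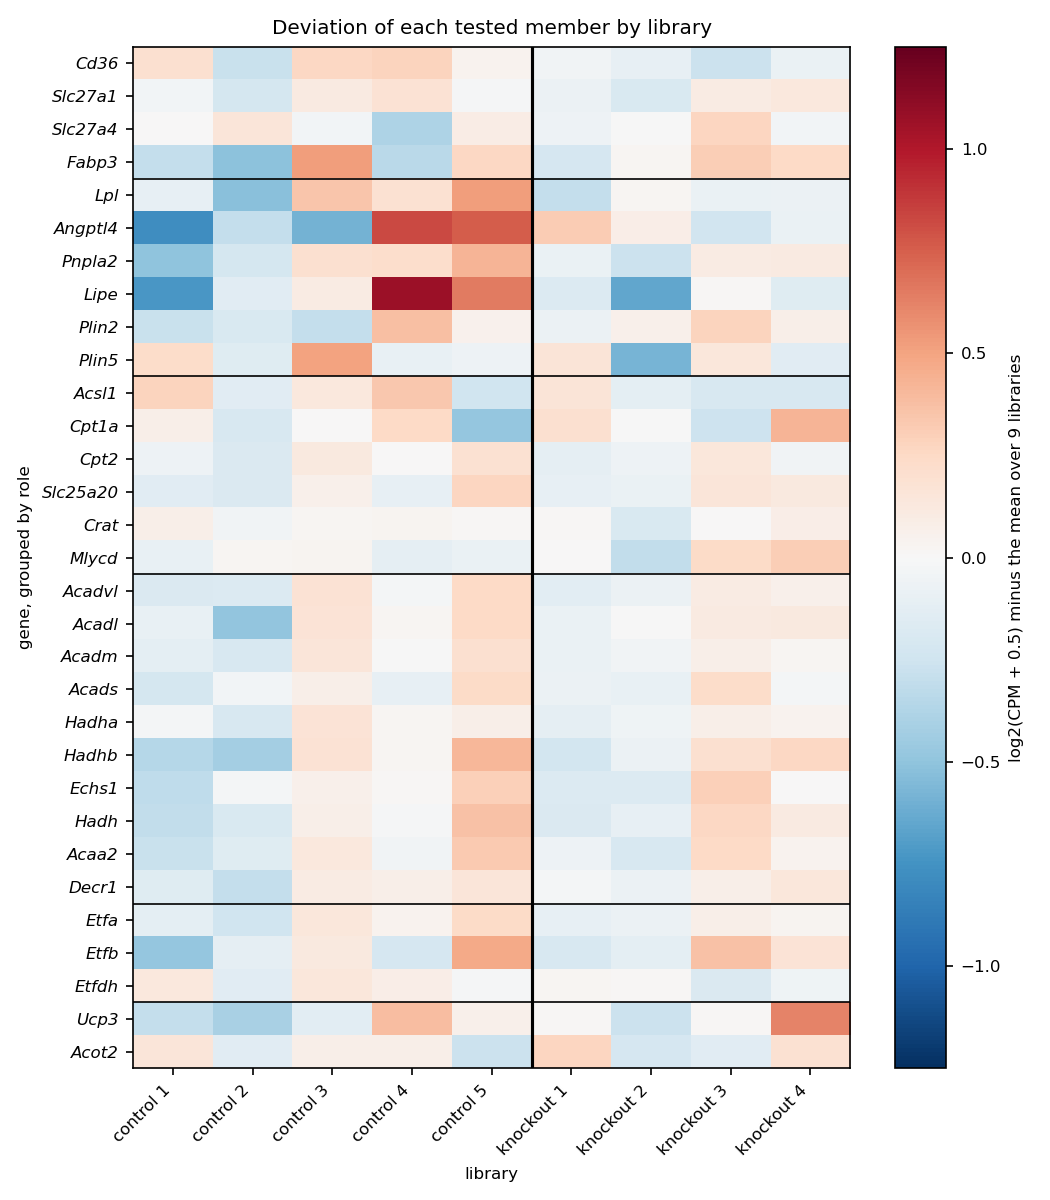
Deviation of each tested fatty acid gene from its own mean over 9 libraries, as log2(CPM + 0.5), with controls left and knockouts right of the black line and roles separated by thin lines. The spiral genes are low in controls 1 and 2 and knockouts 1 and 2 and high in controls 3 and 5 and knockout 3.

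**Figure D5:**
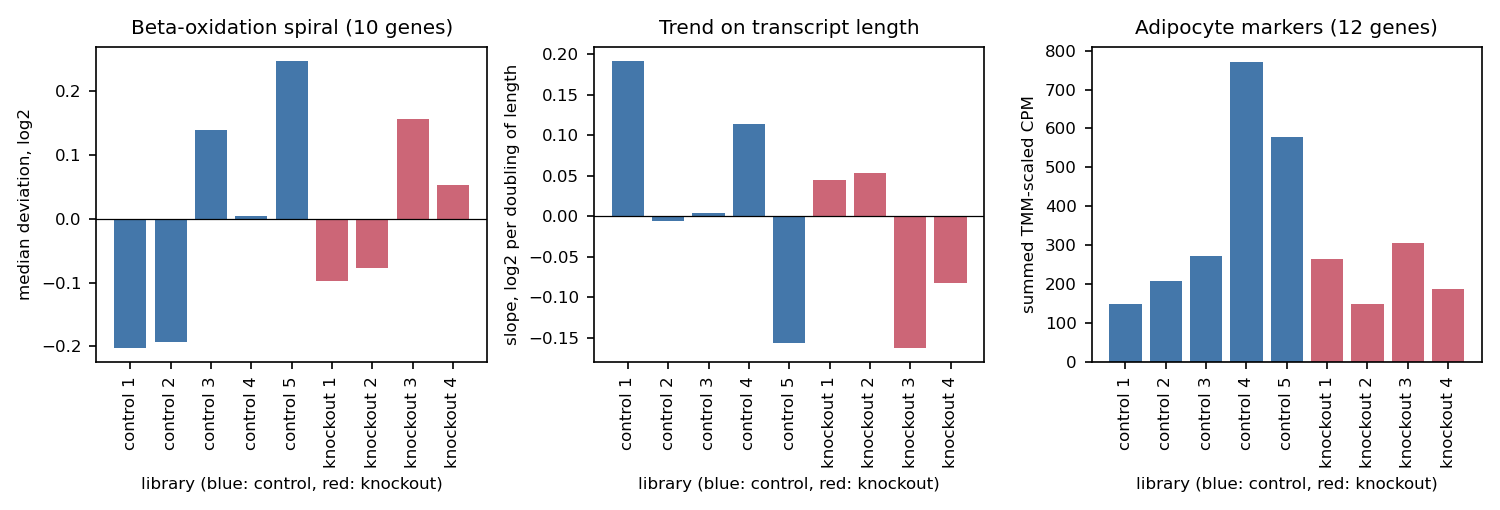
Values by library in 3 panels, with controls in blue and knockouts in red: the median log2 deviation of the 10 spiral genes, the slope of all genes on log2 transcript length, and the summed CPM of 12 adipocyte markers. Control 5 has the highest spiral median (0.25), and controls 4 and 5 have the highest adipocyte sums (771 and 578 CPM).

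Ucp3, the muscle uncoupling protein, and Acot2, a mitochondrial acyl-CoA thioesterase, made up the last role. Ucp3 stood at 90.6, 84.1, 102, 146 and 117 CPM in controls and at 112, 92.2, 112 and 171 CPM in knockouts. Knockout 4 was the highest library and control 4 the second. Its fold change on the log2 scale was 0.18 (SE 0.20). It was 0.41 (SE 0.19, unadjusted p = 0.0539, adjusted p = 0.906) without controls 4 and 5, and -0.03 without knockout 4. Acot2 was at 0.06 (SE 0.14), with 24.5% of its 50-base words shared with its neighbour Acot1.

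The 250 bases before the RefSeq starts (GRCm38.p6) of Ucp3, at chr7:100472741-100472990 on the plus strand, and of Plin2, at chr4:86670060-86670309 on the minus strand, are shown as examples of windows that hold a nuclear receptor motif. Capitals mark AGGTCA, the half-site of nuclear receptors such as the PPARs, or its reverse complement.
Ucp3: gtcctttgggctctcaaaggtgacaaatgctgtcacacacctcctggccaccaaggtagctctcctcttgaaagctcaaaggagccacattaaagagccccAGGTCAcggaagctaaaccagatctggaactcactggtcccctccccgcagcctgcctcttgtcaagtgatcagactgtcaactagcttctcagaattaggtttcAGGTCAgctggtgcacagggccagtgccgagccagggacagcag
Plin2: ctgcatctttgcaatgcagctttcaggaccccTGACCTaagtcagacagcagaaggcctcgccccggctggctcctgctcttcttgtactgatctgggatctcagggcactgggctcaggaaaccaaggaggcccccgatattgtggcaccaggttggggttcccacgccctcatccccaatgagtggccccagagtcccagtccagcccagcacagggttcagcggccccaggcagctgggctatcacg
Ucp3 holds 2 half-sites in the forward direction and Plin2 holds 1 in the reverse. AGGTCA on either strand was in 14% of 32851 RefSeq windows of 250 bases. It was in at least 1 window of 8 of the 26 fatty acid genes with a window, namely Acadm, Acadvl, Cd36, Cpt1a, Echs1, Plin2, Plin5 and Ucp3. Here too the share is of windows and the count is of genes, so they cannot be compared. A pair of AGGTCA in a row with 1 base between them was in 0.0335% of all windows and in 0 of the 26. Elements farther from the start lie outside these windows.

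Other genes of the pathway were read from 7 lists. Of 118 listed genes, 117 were in the table and 103 were tested, and edgeR called 0 of them. At an unadjusted p under 0.05 there were 6, with 1 higher and 5 lower in knockouts, where 3.17% of all genes had such a p. The higher one was Decr2, a peroxisomal reductase (0.46, SE 0.21), which was at 0.27 without controls 4 and 5. Among the lower ones, the peroxisomal transporter Abcd2 was at -0.40 (SE 0.18), and at -0.37 without controls 4 and 5. The medium-chain synthetase Acsm3 was at -1.90 (SE 0.79), but stood at 5.58 CPM in control 4 and at most 0.897 CPM elsewhere, and at -0.45 without controls 4 and 5. The other 3 were the regulators Ppara, Pparg and Nrip1. Nrip1, a corepressor of nuclear receptors named after its values were seen, was at -1.29 (SE 0.56), and at -1.40 without controls 4 and 5. Its levels were 32.1, 11.9, 12.2, 27.2 and 3.24 CPM in controls and 10.1, 9.43, 3.46 and 5.2 CPM in knockouts. It was highest in controls 1 and 4, where long transcripts were counted higher, and lowest in control 5 and knockouts 3 and 4, and the part of length was not tested.

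Ppara, the fatty acid receptor that drives oxidation genes, stood at 46.8, 30.2, 73.1, 51.2 and 59.2 CPM in controls and at 39.1, 34, 37.9 and 30.2 CPM in knockouts. The knockouts lay below 4 of the 5 controls, and control 2 was as low as the lowest knockout. On the log2 scale Ppara was at -0.56 (SE 0.21, adjusted p = 0.967), and -0.49 without controls 4 and 5. Pparg, the receptor that drives fat storage in adipocytes, was at -0.72 (SE 0.27) and at -0.34 without them.

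All 12 tested genes of the second lipolysis list were below 0, with a median of -0.18, and the median was -0.05 without controls 4 and 5. They included Cidec and Dgat2, which adipocytes express strongly. Cidec, a protein of large lipid droplets, was at -0.86 (SE 0.45), and at -0.06 without these controls, and Plin4, a droplet coat protein of muscle and fat, was at -0.26 (SE 0.14) and -0.16. In the list of further uptake genes, Fabp4, the fatty acid binding protein of adipocytes and capillaries, was at -0.48 (SE 0.30) and at 0.08 without them, and Acbd5, a peroxisomal acyl-CoA binding protein, was at -0.11 (SE 0.14). Acaca, the acetyl-CoA carboxylase of lipid synthesis, was at -0.69 (SE 0.36) and at 0.01 without these controls.

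Of the 24 further mitochondrial enzymes, 12 were above 0 and 12 below, with a median of 0. Bdh1, a ketone body dehydrogenase, was at -0.47 (SE 0.25) and Echdc1, which removes ethylmalonyl-CoA, at -0.48 (SE 0.27). Among thioesterases and uncoupling proteins, Acot11 was at -0.43 (SE 0.21) and Acot8 at 0.14 (SE 0.15), with 6 of 9 above 0. The lists of uptake, of activation, of peroxisomal oxidation and of regulators had 4 of 11, 3 of 15, 8 of 17 and 6 of 15 tested genes above 0, with medians of -0.06, -0.18, -0.03 and -0.09.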

How the data were processed

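The deposited values are unnormalized counts of reads for each gene symbol, in 5 control and 4 knockout libraries. Per the labels' protocols, RNA of integrity number 6.7 or more was used, and the NuGEN Ovation system amplified it. The submitters' processing notes list TopHat, HTSeq 0.6.1, Bowtie 0.12.7 and bcl2fastq 1.8.4, and the build mm9. Annotation and strand setting were not given in the sources used here. Hence overlapping and antisense genes could not be told apart.

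Genes were kept by filterByExpr with a minimum count of 10 and scaled by TMM in edgeR 4.0.16 (R 4.3.3). The quasi-likelihood F-test (robust) compared the groups with no other term, adjusted by Benjamini-Hochberg over all tested genes at 0.05. Intervals are 95%, and SE is the fold change over the root of F. Levels are CPM. A count of 0 allows 3 counts. This covers counting error alone, because amplified reads do not stand for independent molecules. Lengths, shared 50-base words and overlaps came from GENCODE M21 (GRCm38), and windows from RefSeq. No coordinates were taken from the files. Libraries of a group were not duplicates, with chi-square per degree of freedom of at least 17.7 between pairs.

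Members, lists and tests were chosen with earlier results of these data known. Values by library were given for the member of smallest p and of highest level per length in each role, for those that moved by over 0.3 on the log2 scale without controls 4 and 5, and for those under the filter. Of other genes, the 2 of smallest p in each list were named. Plin2, Fabp3, Hadha, Hadhb and Cpt1a, and Gpihbp1, Nrip1 and Dgat2 among other genes, were added after their values were seen. The steps were tested on simulated data of 4 against 5 libraries. Of 50 genes changed 1.5-fold, 34% were recovered, and of 50 changed 2-fold, 88% were, with 11 false calls. Library depth was 19522947 to 25608659 counts. Alternatives were RLE and total scaling, other count filters, DESeq2 1.42.0, limma-voom (limma 3.58.1), libraries left out, and a block on the label number.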

Additional observations from a re-analysis of the deposited data

Results flagged for a closer look

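Over 64 sets of a gene in a group, 1 library lay far from the rest of its group by Dixon's criterion, where chance flags about 1 in 20. Slc27a4, a fatty acid transport protein, stood at 19.2 CPM in knockout 3, against 15.1 to 15.8 CPM in the other 3 knockouts and 12 to 17.6 CPM in controls.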

How the results depend on the processing

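Under all 18 alternatives 0 of the members passed, and their median log2 fold change stayed within the spread between libraries, from -0.051 to 0.071 when 1 library was left out and at 0.086 without controls 4 and 5. Over all genes, DESeq2 called 3 and the fit with the replicate block called 1, while each fit with 1 library left out called 0. With the replicate block the median of the members was 0.056, with 21 above 0 and 10 below. Control 5 has no knockout of its number, so it does not inform the difference in the block fit. In that edgeR fit 2 members, Etfb and Ucp3, had an unadjusted p under 0.05, where 11% of all genes did, against 3.17% without the block. Same-numbered libraries deviated together with a correlation over 0.1 in 1 of 4 pairs (0.419 for number 1). For numbers 2 to 4 it was 0.037, 0.081 and -0.067, and the best match of each of these controls was a knockout of another number. Whether the label numbers pair the samples is thus not settled. Groups did not overlap in 2 members without controls 4 and 5, and in 0 under the other scalings and without control 5 and knockouts 3 and 4. Of 31 members, 23 changed sign under at least 1 alternative, and of 558 values 14 lay beyond 1 SE of the 9-library value, 8 of them without controls 4 and 5. Scaling by totals moved the median of all genes to -0.022. Cpt1b had at most 11 counts in a library, and the cause was not tested.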
